A study of Mus musculus with 10 samples.

Results

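Bipolar cells are the interneurons that carry the photoreceptor signal to the inner retina, and 9 of their genes are described here: Grm6, Trpm1, Nyx, Gng13, Pcp2, Prkca, Cabp5, Vsx1 and Bhlhe23. They were taken by symbol from a table of histone mark occupancy around transcription start sites (TSS) that holds 25152 entries of 20044 gene symbols. All 9 genes were in the table, with 12 entries in total, since Trpm1 has 2 entries and Pcp2 has 3. For Trpm1 the entry whose values sum highest stands for the gene, and for Pcp2, whose entries have equal sums, the entry first by name.

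The occupancy comes from ChIP-Seq of untreated whole mouse retina at E17.5 (embryonic day), PN1, PN7 and PN15 (postnatal day). The precipitated mark was either H3K4me2, a modification of active and poised promoters, or H3K27me3, which is found at repressed genes, and each mark has 1 library for each stage, so that no difference between stages has a replicate error or a test. The study's methods give wild type C57BL/6j mice and pooled retinas, whereas the sample labels name the rd1/rd1 strain for all libraries and write the embryonic stage as E17. The methods were followed for the strain, and the stage is written E17.5 as in parts of the study's results. Antibody catalogue numbers in the labels are swapped between the marks relative to the methods, which was not resolved, and titles gave the mark. A H3K4me2 library of rd1/rd1 retina at PN30 and an anti-GFP library at PN56 were not analysed here. Bipolar cells are a minority of retinal cells and each value is an average over the whole tissue, so a larger share of cells carrying a mark and more of the mark in each cell cannot be told apart.

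Values are normalized occupancy, the reads within 2.5 kb of a TSS which the authors scaled to all mapped reads and rounded. Counting intervals (95%) take the rounded value as the number of reads. No whole number below 110 is missing from any library, so that a unit stands for at least 1 read and the intervals are at their widest. They cover counting error only. A gene is called changed where log2(value + 1) differs by at least 1, that is 2-fold, and counts are set beside the share of all 20044 symbols past the same limit. The tissue was checked with rod photoreceptor markers, of which 14 of 14 gained H3K4me2 by this limit from E17.5 to PN15 (all symbols, 7.84%). The H3K4me2 library of PN7 stands apart, with 19.5% of entries at 0 against 0.362% to 2.52% in the other 3 H3K4me2 libraries. The H3K27me3 library of PN15 also differs, with a highest value of 416 against 766 to 1125 in the other 3 H3K27me3 libraries and a sum over entries of 590366 against 790454 to 980808.

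In darkness photoreceptors release glutamate. ON bipolar cells answer it with the metabotropic receptor mGluR6, encoded by Grm6, which acts through a Go protein to close the cation channel TRPM1. Nyctalopin, encoded by Nyx, is a leucine-rich repeat protein of the same dendritic complex. Gng13 encodes a G protein gamma subunit of this cascade and Pcp2 a protein that binds Go alpha subunits. Protein kinase C alpha, encoded by Prkca, is the classical marker of rod bipolar cells, and Cabp5 encodes a calcium-binding protein of rod bipolar cells and some cone bipolar cells. Vsx1 is a homeobox factor of cone bipolar cells, and Bhlhe23 is a basic helix-loop-helix factor needed for the maturation of rod bipolar cells. Bipolar cells are among the last neurons of the retina to be born, and most of these genes are switched on after birth.

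The sequences upstream of 5 of the genes show how differently their promoters are built. RefSeq promoter windows of all 9 members, with 14 starts, matched the mm9 genome letter for letter. Printed here, 5′ to 3′ on the strand of the gene, is the part of each window that lies upstream of the annotated gene (mm9), with CpG dinucleotides in capitals. Bhlhe23 and Grm6 carried the highest H3K27me3 of the group at E17.5, Prkca the highest H3K4me2, and Cabp5 little of either mark. Trpm1 had 10 of H3K4me2 and 24 of H3K27me3.
Bhlhe23, chr2:180511606-180511855 (-): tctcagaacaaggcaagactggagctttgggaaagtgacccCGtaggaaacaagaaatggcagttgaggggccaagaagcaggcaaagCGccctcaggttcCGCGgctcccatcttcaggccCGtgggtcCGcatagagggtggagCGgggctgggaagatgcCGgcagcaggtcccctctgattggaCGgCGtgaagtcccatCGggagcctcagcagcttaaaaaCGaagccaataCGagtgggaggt
Grm6, chr11:50663937-50664186 (+): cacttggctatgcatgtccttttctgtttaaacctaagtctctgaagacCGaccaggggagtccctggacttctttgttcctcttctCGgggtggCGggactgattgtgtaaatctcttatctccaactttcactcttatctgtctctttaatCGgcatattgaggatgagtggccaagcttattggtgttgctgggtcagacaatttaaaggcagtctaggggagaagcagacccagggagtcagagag
Prkca, chr11:108205243-108205452 (-): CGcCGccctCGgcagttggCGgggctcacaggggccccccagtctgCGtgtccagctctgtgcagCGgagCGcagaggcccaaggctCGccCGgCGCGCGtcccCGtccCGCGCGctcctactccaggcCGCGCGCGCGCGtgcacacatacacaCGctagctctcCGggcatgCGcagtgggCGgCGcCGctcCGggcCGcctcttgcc
Trpm1, chr7:71298471-71298720 (+): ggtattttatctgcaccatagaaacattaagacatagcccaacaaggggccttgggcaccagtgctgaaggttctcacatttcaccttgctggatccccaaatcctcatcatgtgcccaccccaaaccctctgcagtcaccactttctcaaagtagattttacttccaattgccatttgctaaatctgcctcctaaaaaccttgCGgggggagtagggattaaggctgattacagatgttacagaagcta
Cabp5, chr7:13983254-13983480 (+): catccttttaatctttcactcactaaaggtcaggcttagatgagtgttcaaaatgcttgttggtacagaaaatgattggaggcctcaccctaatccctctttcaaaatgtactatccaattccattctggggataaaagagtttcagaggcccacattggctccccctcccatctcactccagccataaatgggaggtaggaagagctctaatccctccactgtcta
Prkca has 30 CpG in its 210 bases and Bhlhe23 13 in 250. Grm6 has 4 in 250, Trpm1 has 1 in 250, and Cabp5 has 0 in 227 bases.

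Of the receptor complex, Grm6 was the gene with abundant H3K27me3. From E17.5 through PN1 and PN7 to PN15 its H3K27me3 read 451, 457, 293 and 121. It fell to 0.268 (interval 0.218 to 0.329) of the E17.5 value at PN15, a log2 change of -1.89, and the larger step was from PN7 to PN15. At 121 it still lay at percentile 96.8 of its library. H3K4me2 at Grm6 was 30, 16, 20 and 33 at the same stages, so the first and last stage differed by less than counting error, with a ratio of 1.10 (interval 0.650 to 1.87). The receptor gene thus lost H3K27me3 while its H3K4me2 stayed under the library median, at 0.786 of it at PN15.

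Trpm1, the channel gene, carried little H3K4me2 and a modest level of H3K27me3, between 1.70 and 2.56 times the library median. H3K4me2 was 10, 8, 2 and 15, and the rise from PN7 to PN15 had a ratio of 7.5 (interval 1.74 to 67.6). H3K27me3 was 24, 25, 23 and 17, a series in which each interval overlaps the next. Its second entry read 10, 10, 3 and 24 for H3K4me2 and 19, 15, 18 and 12 for H3K27me3. Both entries were lowest in H3K4me2 at PN7 and highest at PN15. With the second entry Trpm1 would pass the 2-fold limit in H3K4me2 from E17.5 to PN15, which the first does not, and its H3K27me3 would not be in the top 25% of the library at E17.5, PN1 or PN7. The RefSeq starts of Trpm1 lie 31624 bp apart, at the start of the annotated gene and inside it, and which entry belongs to which start was not resolved.

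Nyx had the largest relative gain of H3K4me2 and started from nearly nothing. Its values were 1, 9, 2 and 17, a ratio of 17 (interval 2.66 to 710) from E17.5 to PN15, where the interval is wide because the first value is 1. The last value was still low, at percentile 36.8 of the PN15 library and 0.405 of its median. H3K27me3 was 40, 34, 42 and 34, with all 4 intervals overlapping. So Nyx kept H3K27me3 between percentile 81.8 and percentile 85.0 of the libraries, while its H3K4me2 stayed under the library median at all 4 stages. The RefSeq start of Nyx used here lies upstream of the annotated gene on chromosome X (start 13043236), at 13038216, and the window of the occupancy may sit at either.

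Neither Gng13 nor Pcp2 passed the 2-fold limit over the whole course. Gng13 had H3K4me2 of 26, 16, 20 and 43, and H3K27me3 of 86, 109, 74 and 112. From E17.5 to PN15 the ratio of H3K4me2 at Gng13 was 1.65 (interval 0.993 to 2.80), the third largest of the 9 genes and at percentile 85.3 of all symbols. From PN7 to PN15 both marks were higher at Gng13, with ratios of 2.15 (interval 1.24 to 3.86) for H3K4me2 and 1.51 (interval 1.12 to 2.06) for H3K27me3, of which only the first passed the 2-fold limit. Gng13 has a single entry and a pair of RefSeq starts, and which of them was counted was not resolved. A start of the neighbouring gene Chtf18 lies 2257 bp from the second of these, and its window alone would hold it. The Chtf18 entry read 82, 63, 64 and 80 for H3K4me2 and 5, 7, 5 and 24 for H3K27me3. Its part in the values of Gng13 was not tested.

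Pcp2 had H3K4me2 of 16, 14, 5 and 22, and H3K27me3 of 23, 17, 17 and 12. From PN7 to PN15 H3K4me2 rose with a ratio of 4.40 (interval 1.63 to 14.9). The decline of H3K27me3 from E17.5 to PN15, with a ratio of 0.522 (interval 0.237 to 1.09) and a log2 change of -0.88, stayed under the limit. The 3 entries of Pcp2 differed by at most 2 units in any library, as their windows overlap.

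Prkca followed another course, gaining H3K4me2 and losing H3K27me3. H3K4me2 was 63, 47, 77 and 154. The gain from E17.5 to PN15 was 2.44 (interval 1.81 to 3.33) as a ratio, and its last step, from PN7 to PN15, was just under the limit with a log2 change of 0.99. H3K27me3 was 38, 26, 15 and 13, a ratio of 0.342 (interval 0.167 to 0.657) over the course. At PN15 Prkca stood at percentile 98.8 for H3K4me2 and at percentile 58.2 for H3K27me3. No other member passed the 2-fold limit upward in H3K4me2 and downward in H3K27me3 from E17.5 to PN15. Prkca is also expressed outside bipolar cells. An annotated start of Apoh lies 534 bp away on the opposite strand, within the counted window. The Apoh entry read 2, 6, 0 and 2 for H3K4me2 and 10, 11, 7 and 5 for H3K27me3. Its RefSeq window had 45 CpG, against 188 for that of Prkca. Windows 534 bp apart share most of their bases, so the Apoh entry appears to be of another start.

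Cabp5 was close to empty for H3K4me2. It read 6, 9, 0 and 6, where 0 allows up to 3.69 at the 95% limit, and the first and last stage were equal. H3K27me3 was 6, 9, 12 and 25, and the gain had a ratio of 4.17 (interval 1.67 to 12.4). Cabp5 was the only one of the 9 genes with a called gain of H3K27me3 from E17.5 to PN15, and at 25 it reached percentile 77.9 of the PN15 library.

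Both transcription factor genes carried strong H3K27me3 and little H3K4me2. Vsx1 had H3K27me3 of 378, 459, 328 and 152, ending at 0.402 (interval 0.331 to 0.487) of its first value. Its H3K4me2 was 27, 24, 16 and 18, and at 18 it lay at percentile 37.4. Vsx1 was the only member whose H3K4me2 was lower at PN15 than at E17.5, and the interval of that ratio, 0.667 (interval 0.346 to 1.26), includes no change.

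Bhlhe23 carried the most H3K27me3 of the 9 genes at all 4 stages, 540, 607, 404 and 186. It fell to 0.344 (interval 0.290 to 0.408) of the E17.5 value. H3K4me2 was 11, 5, 6 and 13, never above 0.310 of the library median. The ratio from PN7 to PN15 reached the limit with a log2 change of 1.0, but its counting interval, 0.768 to 6.95, includes no change. Both factor genes and Grm6 therefore had the same order of stages for H3K27me3 from PN1 on, PN1 above PN7 above PN15, without a matching gain of H3K4me2.

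**Figure D1:**
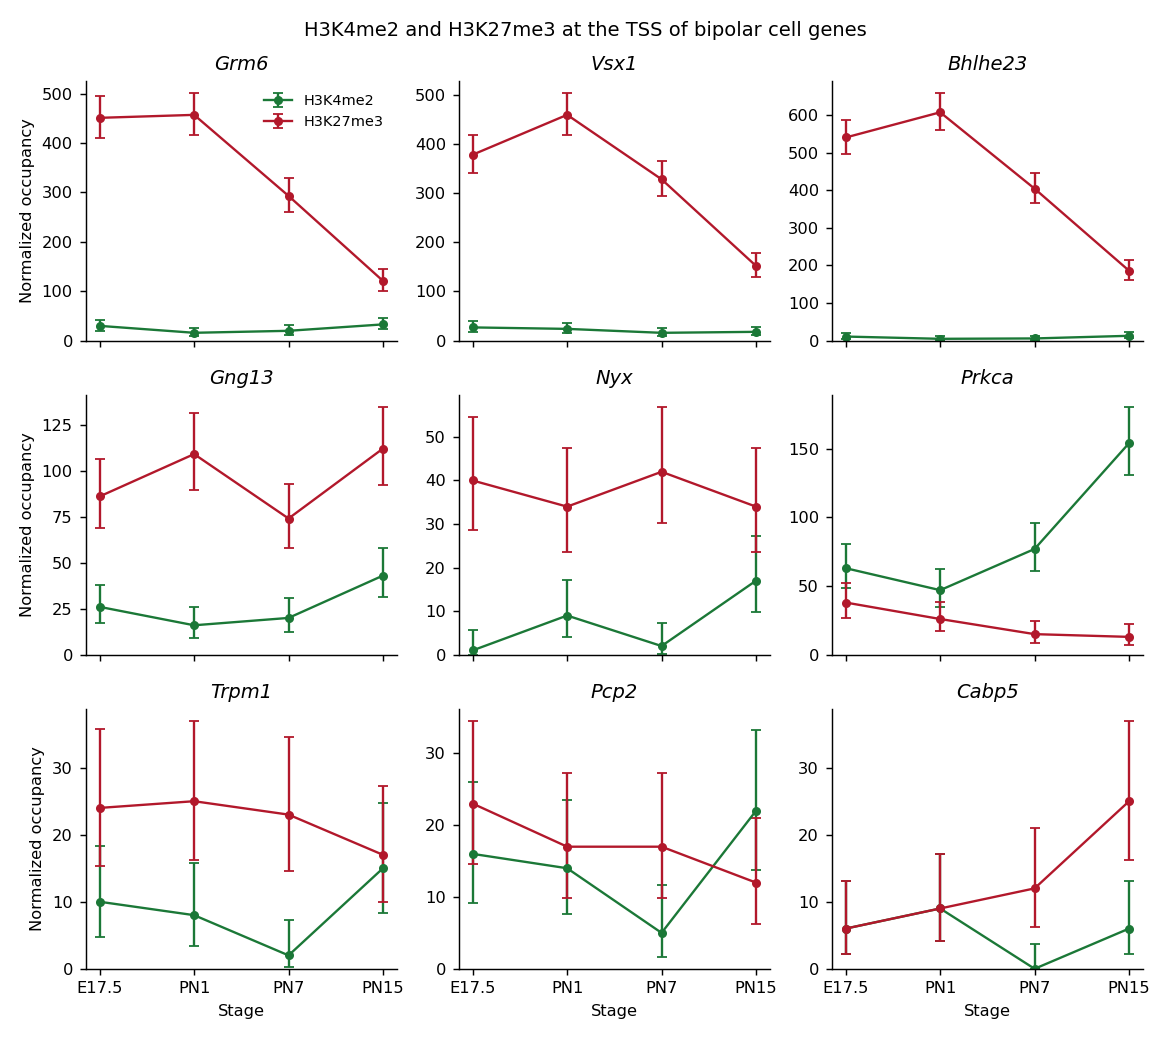
Normalized occupancy of H3K4me2 and H3K27me3 (vertical axis, from 0, scaled for each gene) by stage for each of the 9 genes, with 1 library per point. Bars are 95% counting intervals at their widest. Grm6, Vsx1 and Bhlhe23 fall from 378 to 540 of H3K27me3 at E17.5 to 121 to 186 at PN15, and Prkca alone rises to 154 of H3K4me2.

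Counted together, the 9 genes gained little H3K4me2 over the course. From E17.5 to PN15 Prkca and Nyx passed the 2-fold limit upward, 2 of 9 genes (all symbols, 7.84%), and 0 of 9 passed it downward (all symbols, 11.7%). The median log2 change was 0.44, beside 0.13 over all symbols. From E17.5 to PN1 Nyx was up (all symbols, 8.23%) and Bhlhe23 was down (all symbols, 6.78%), the latter with a counting interval that includes no change. The median log2 change of this step was -0.29, beside -0.42 over all symbols.

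The later steps went through the PN7 library. From PN1 to PN7, Trpm1, Cabp5, Pcp2 and Nyx were past the limit downward, 4 of 9 genes (all symbols, 36.8%), and 0 of 9 upward (all symbols, 4.09%). The median log2 change was -0.56, beside -0.50 over all symbols. Of these 4, only Cabp5 had a counting interval that leaves out no change. From PN7 to PN15, 6 of 9 genes were past the limit upward (all symbols, 52.3%) and 0 of 9 downward (all symbols, 2.06%), namely Trpm1, Cabp5, Bhlhe23, Pcp2, Gng13 and Nyx. The median log2 change of the 9 genes for this step was 1.07, and that of all symbols was 1.0. With the H3K4me2 libraries brought to an equal median, 4 of 9 genes were past the limit downward from PN1 to PN7 (all symbols, 32.9%) and 4 of 9 upward from PN7 to PN15 (all symbols, 23.7%). The scaling shifts all genes alike, and the medians of the PN1, PN7 and PN15 libraries were 27, 24 and 42. The PN7 library holds the most entries at 0, and the part of those in either step was not tested.

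H3K27me3 fell at 4 of the 9 genes from E17.5 to PN15, Grm6, Prkca, Vsx1 and Bhlhe23 (all symbols, 16.1%), and rose at 1, Cabp5 (all symbols, 12.2%). The PN15 library has the lowest top values. Of the symbols with at least 300 at E17.5, among them Grm6, Vsx1 and Bhlhe23, 58.9% were past the limit downward from PN7 to PN15. From E17.5 to PN15 80.2% of them were, though there the same E17.5 values chose the symbols. The median log2 change of the 9 genes from E17.5 to PN15 was -0.88, beside 0.00 over all symbols. Between E17.5 and PN1 0 of 9 genes were past the limit in either direction (all symbols, 5.77% up and 8.27% down), and likewise between PN1 and PN7 (all symbols, 6.99% up and 13.5% down). From PN7 to PN15, Grm6, Vsx1 and Bhlhe23 were down (all symbols, 9.70%) and Cabp5 was up (all symbols, 15%). The decline at Prkca had log2 changes of -0.53, -0.75 and -0.19 in the successive steps. Each step had a counting interval that includes no change, so the decline cannot be placed in time.

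The genes with the most H3K27me3 can be set beside other symbols of like level. A limit of 300 at E17.5, chosen after the values were seen, was met by Grm6, Vsx1 and Bhlhe23 and by 526 symbols in all (2.62%), Gng13 being the next member at 86. Over the 526 the median log2 change was 0.30 from E17.5 to PN1, -0.52 from PN1 to PN7 and -1.04 from PN7 to PN15. In the last step, which the limit did not use, the log2 changes were -1.27 at Grm6, -1.10 at Vsx1 and -1.11 at Bhlhe23. From E17.5 to PN15 the median was -1.28 (quartiles -1.5 and -1.06), a description only, since the same E17.5 values chose the symbols. Of the 3 members, Vsx1 with -1.31 stood near that median, at percentile 46.9 of the 526 changes. Bhlhe23 with -1.53 stood at percentile 23.1. Grm6 with -1.89 stood at percentile 6.37, with 33 of the 526 symbols showing a lower change. H3K4me2 of the 526 symbols had a median log2 change of -0.63 and went from a median of 29 to 17. Within it Grm6 with 0.13 lay at percentile 83.7, Bhlhe23 with 0.22 at percentile 87.1 and Vsx1 with -0.56 at percentile 52.9.

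The order of the levels differed between the marks. For H3K27me3 at E17.5 it ran Bhlhe23, Grm6, Vsx1, Gng13, Nyx, Prkca, Trpm1, Pcp2 and Cabp5. Counting intervals of neighbours overlapped between Grm6 and Vsx1 and from Nyx through Pcp2, and were apart at the other steps. By PN15 Bhlhe23, Vsx1, Grm6 and Gng13 followed each other with overlapping intervals from 186 to 112, then came a gap to Nyx at 34. For H3K4me2 at PN15 Prkca at 154 was apart from Gng13 at 43, and from Gng13 through Grm6, Pcp2, Vsx1, Nyx, Trpm1 and Bhlhe23 to Cabp5 at 6 each pair of neighbours overlapped. Prkca led the order of H3K4me2 at each stage.

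High H3K27me3 was common among these genes and high H3K4me2 was rare. At E17.5, 8 of the 9 genes were in the top 25% of H3K27me3 (all symbols, 25.3%), the exception being Cabp5 with 6, and 0 of 9 were in the top 25% of H3K4me2 (all symbols, 25.5%). This range began at 21 for H3K27me3 and at 65 for H3K4me2, with Pcp2 at 23 just inside the first and Prkca at 63 just outside the second. H3K27me3 was in the top 25% for 7 genes at PN1 (all symbols, 25.6%), for 6 at PN7 (all symbols, 25.1%) and for 6 at PN15 (all symbols, 25.9%). For H3K4me2 Prkca was there alone at PN1 (all symbols, 27%), at PN7 (all symbols, 25.1%) and at PN15 (all symbols, 25%). Both marks together were in the top 25% for 0 genes at E17.5 (all symbols, 3.76%), for Prkca at PN1 (all symbols, 4.17%), for 0 genes at PN7 (all symbols, 7.81%) and for 0 at PN15 (all symbols, 1.83%). High H3K27me3 was not particular to the members. At E17.5 its top 25% also held 9 of 10 bipolar regulators, 9 of 10 ganglion cell markers and 7 of 9 amacrine cell markers (all symbols, 25.3%). It held 8 of 12 other bipolar markers, 4 of 7 cascade genes, 3 of 14 rod markers and 2 of 7 Mueller glia markers. These lists are described below.

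**Figure D2:**
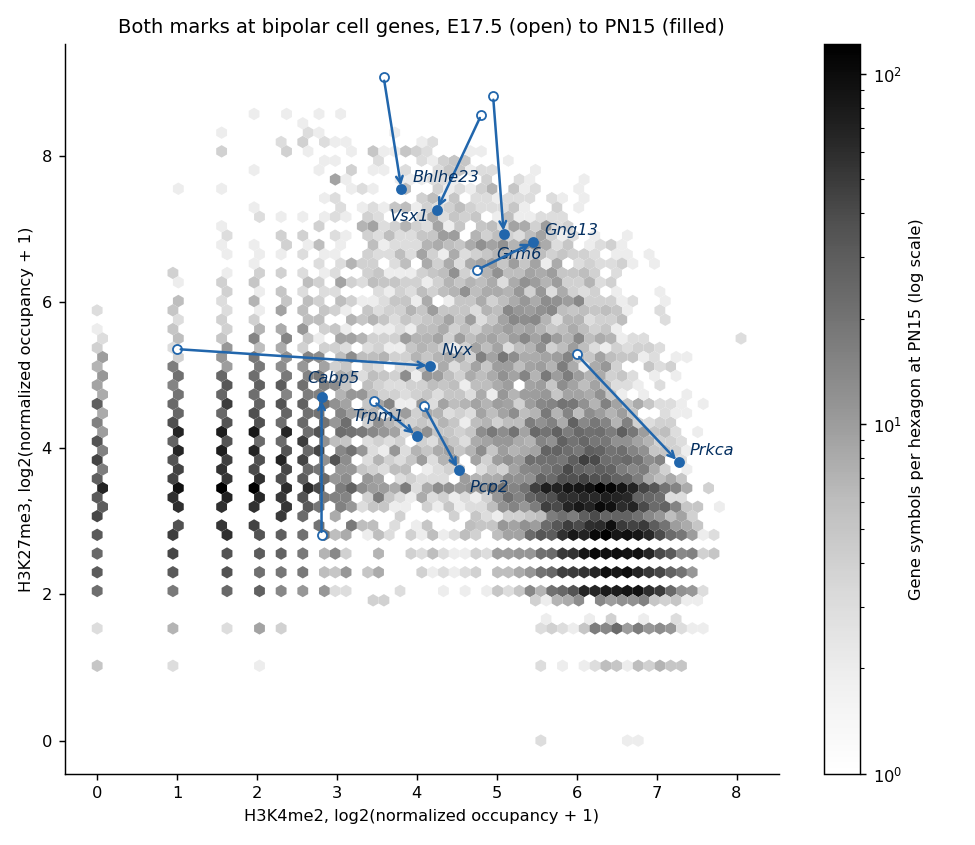
H3K4me2 (horizontal axis) against H3K27me3 (vertical axis), both as log2(normalized occupancy + 1), with open circles at E17.5 and filled circles at PN15 joined for each of the 9 genes, over all symbols at PN15 as grey hexagons shaded by their number on a log scale. Prkca moves to the right and down, Grm6, Vsx1 and Bhlhe23 move down, Nyx moves to the right and Cabp5 moves up.

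The nearest symbol outside the group, by Euclidean distance of log2(value + 1) over the 8 libraries, was Jakmip3 for Grm6 (distance 0.514), Acan for Vsx1 (0.604), Kcnk9 for Bhlhe23 (0.775) and Brsk2 for Prkca (0.692). For the other members it was Otos for Trpm1 (0.590), Cd160 for Pcp2 (0.788), Il2rb for Cabp5 (0.969), Mcc for Gng13 (0.931) and Ttc24 for Nyx (1.5). Within the group Grm6 and Vsx1 lay closest together, at 1.15, with 45 symbols nearer to Grm6 than Vsx1 was. Prkca had 11345 symbols nearer to it than Pcp2, its closest member at 5.35. The 9 genes thus did not form 1 pattern, and a low distance at low values rests on few reads.

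Other proteins of the mGluR6 cascade carried more H3K4me2 than the members. Of this list of 8 genes, 7 were in the table, and at PN15 their H3K4me2 ran from 29 to 174, with 6 of the 9 members below the lowest of them. From E17.5 to PN15 1 of the 7 was past the limit upward, Gnb3, the G protein beta subunit of ON bipolar cells and cones, from 25 to 69. Gnb5, another beta subunit, read 63 and 118, and Gpr179, an orphan receptor of the complex, 41 and 29. None of the 7 was past it downward. For H3K27me3, 2 of the 7 were down and 1 was up. Of all symbols 7.84% were up and 11.7% down in H3K4me2, and 12.2% up and 16.1% down in H3K27me3. The highest at E17.5 was Rgs9bp, the anchor of an RGS protein, and it fell from 129 to 19. The median change of H3K4me2 in this list was 0.67, beside 0.44 for the members.

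Transcription regulators of bipolar cells, 10 genes, had more of both marks than the members at E17.5, with medians of 73.5 for H3K4me2 and 131 for H3K27me3 beside 16 and 40. By PN15 1 of the 10 had gained H3K4me2 past the limit and 3 had lost it, while 2 had gained H3K27me3 and 4 had lost it (all symbols, 7.84% and 11.7% for H3K4me2, 12.2% and 16.1% for H3K27me3). The gain was at Sebox, a homeobox gene, from 5 to 56. Otx2, a homeobox factor of photoreceptors and bipolar cells, read 73 and 140 for H3K4me2 and fell from 212 to 46 in H3K27me3. Isl1 fell from 44 to 15 in H3K4me2, and Lhx4 had the highest H3K27me3 of the list at E17.5, 354. Vsx1 and Bhlhe23 lay above that value, at 378 and 540, and so did Grm6 at 451.

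Receptors, channels and other markers of bipolar cells, 12 genes, had a median H3K4me2 of 28 at PN15 beside 18 for the members. Of the 12, 3 gained H3K4me2 past the limit and 0 lost it, while 0 gained H3K27me3 and 3 lost it (all symbols, 7.84% and 11.7% for H3K4me2, 12.2% and 16.1% for H3K27me3). Gabrr2 and Gabrr1, which encode GABA receptor rho subunits, gained H3K4me2 from 4 to 31 and from 2 to 14, from low values as at Nyx. Syt2, a synaptotagmin of some cone bipolar cells, had the highest H3K27me3, and it fell from 459 to 146, close to Grm6 (451 and 121).

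Rod photoreceptor markers differed from the members at PN15. H3K4me2 of the 14 rod genes in the table ran from 53 to 134 at PN15, highest at Rcvrn, which encodes recoverin, and 8 of the 9 members lay below the lowest of them, while Prkca at 154 lay above the highest. The median change of H3K4me2 from E17.5 to PN15 was 2.92 for the rod genes and 0.44 for the bipolar genes. At E17.5 the ranges overlapped, 1 to 43 for the rod genes and 1 to 63 for the bipolar genes. H3K27me3 of the rod genes was at most 43 at E17.5, and 4 of the 9 members lay above that.

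Markers of the remaining retinal cells were counted in the same way. Ganglion cell markers had a median H3K4me2 change of -0.97, with 0 of 10 up (all symbols, 7.84%) and 5 down (all symbols, 11.7%). Amacrine cell markers had -1.0, with 1 of 9 up and 5 down. Mueller glia markers had -0.52, with 0 of 7 up and 1 down. For H3K27me3 the counts were 0 up and 3 down for ganglion cells, 1 up and 2 down for amacrine cells and 2 up and 1 down for Mueller glia (all symbols, 12.2% up and 16.1% down), and 1 up and 4 down of the 14 rod genes. The median H3K27me3 change was -0.63 for ganglion cell markers, -0.58 for bipolar regulators, -0.42 for the other bipolar markers and for amacrine cell markers, -0.23 for rod markers, -0.22 for the cascade and 0.68 for Mueller glia markers, beside -0.88 for the members. How the shares of cell types in the retina moved these values was not tested.

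**Figure D3:**
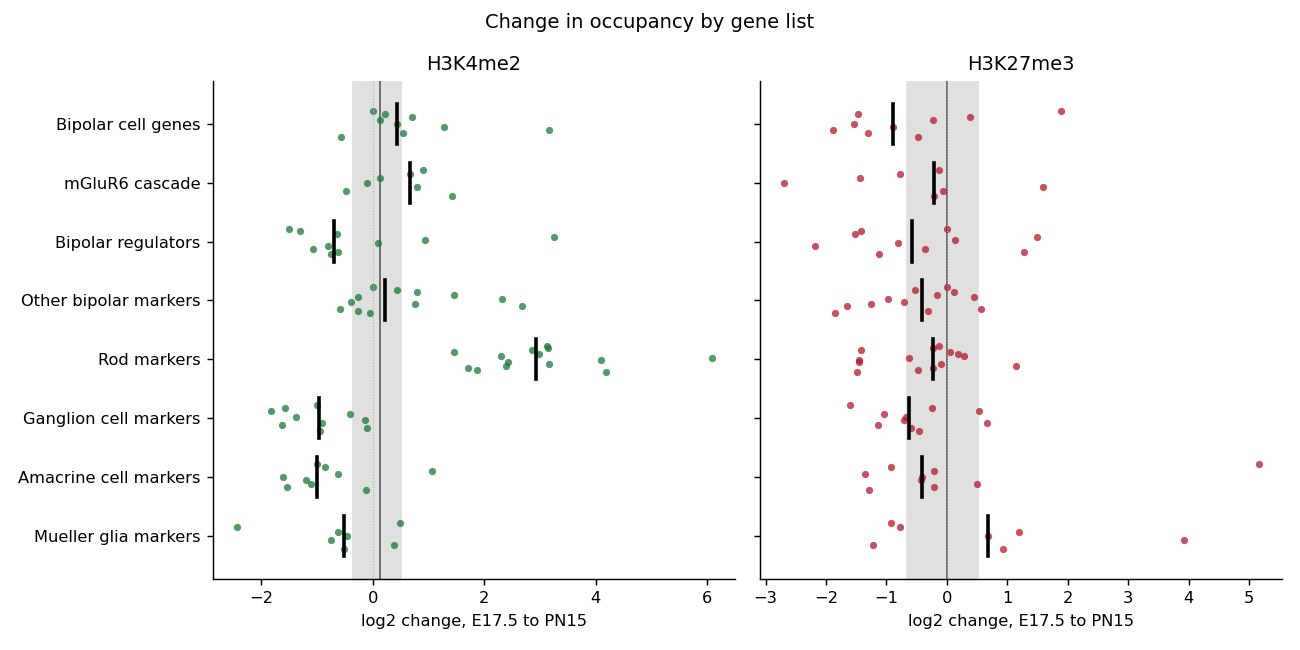
Log2 change of H3K4me2 and of H3K27me3 from E17.5 to PN15 (horizontal axes) for the members and the other lists (rows), with 1 point per gene a bar at the median of the list, and a grey band and line at the quartiles and the median of all symbols. The rod genes lie to the right for H3K4me2 with a median of 2.92, and for H3K27me3 the medians are -0.88 for the members and from -0.63 to -0.22 for the other neuronal lists.

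CpG content sorted the members in part as the marks did. Within 2.5 kb of the TSS Bhlhe23 had 194 CpG and Prkca 188, Grm6 and Vsx1 had 129 each, and Gng13 had 110 and 119 at its pair of starts. Nyx had 76, Pcp2 51 to 53, Trpm1 38 and 51, and Cabp5 13. Over the 13818 symbols whose promoter was found in mm9 the median was 102 (quartiles 59 and 142), which places Cabp5 at percentile 1.19 and Bhlhe23 at percentile 92.0. The 3 genes with H3K27me3 above 300 at E17.5 were all above the median of CpG. So were Prkca and Gng13, which had 38 and 86 of H3K27me3. Cabp5 and Trpm1, the pair with the fewest CpG, had H3K4me2 of 6 and 15 at PN15.

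Over the 13818 symbols the medians of H3K4me2 rose with CpG content and those of H3K27me3 did not. In 4 classes of near equal size and rising CpG content the median H3K4me2 at PN15 was 3, 33, 66 and 80. The median H3K27me3 at E17.5 was 9, 12, 11 and 11. All 4 of these lay near the library median of 11, so they do not show the minority of symbols with high H3K27me3. How CpG content relates to high H3K27me3 was not tested. Cabp5, Trpm1 and Pcp2 are in the lowest class, and their H3K4me2 at PN15 of 6, 15 and 22 lay above its median of 3. Bhlhe23 and Prkca are in the highest class, where the median is 80, and had 13 and 154. Grm6, Vsx1 and Gng13 are in the third class with 33, 18 and 43, below its median of 66, and Nyx is in the second with 17, below its median of 33.

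**Figure D4:**
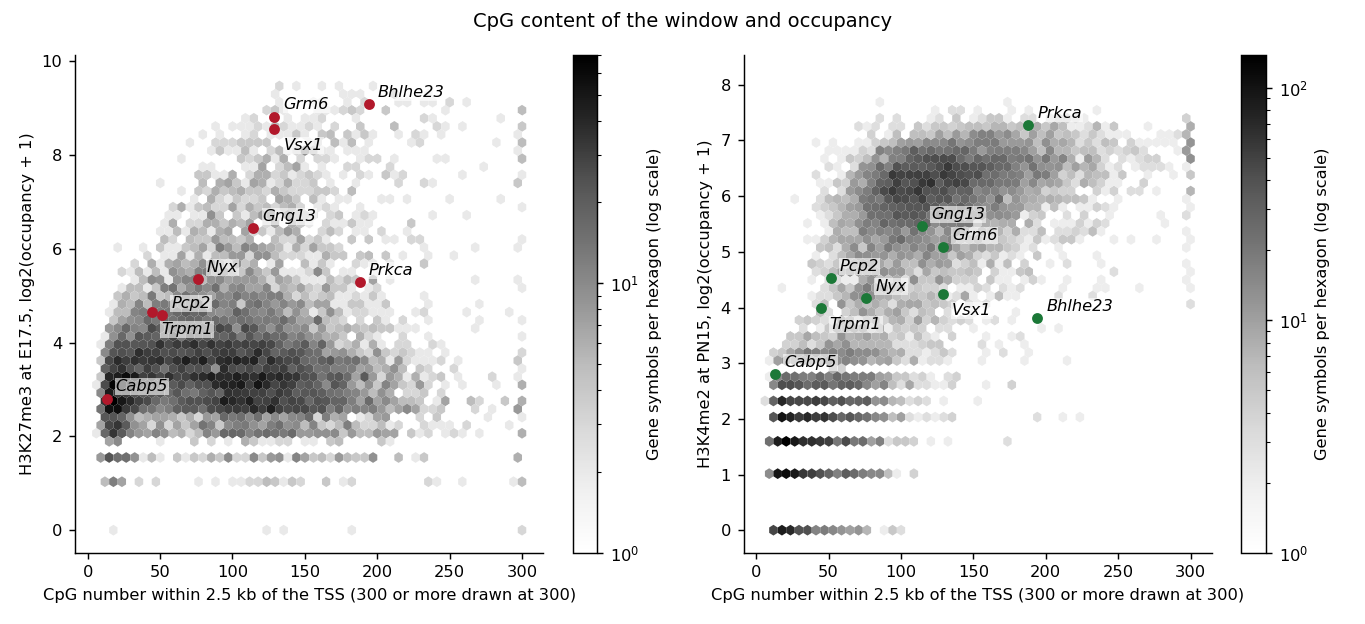
Number of CpG within 2.5 kb of the TSS (horizontal axis, values from 300 drawn at 300) against log2(normalized occupancy + 1) of H3K27me3 at E17.5 and of H3K4me2 at PN15 (vertical axes), with all symbols as grey hexagons shaded by their number on a log scale and the 9 genes as labelled points. Bhlhe23 with 194 CpG sits at the top for H3K27me3 and far below Prkca with 188 CpG for H3K4me2.

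Motif matches were counted on both strands in the 300 bases from 250 before to 50 after each start. TAATCC, the core bound by OTX and CRX homeodomains, was in 2 of the 14 member windows, against 7.06% of 32851 windows. In Trpm1 it begins 34 bases before the start, and in Cabp5 it occurs at 160 and at 41 bases before it. TAATTA, the core of many homeodomains, was in 1 of 14, a Pcp2 window, against 5.29%, and CAGCTG, an E-box, in 1 of 14, that of Vsx1 with 2 matches, against 16.3%. No match overlapped another. Prkca, Grm6, Bhlhe23, Nyx and Gng13 held none of these letters in the window.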

How the data were processed

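The authors aligned the reads to mm9 (Bowtie 0.12.4), kept those with a single position and summed their midpoints within 2.5 kb of each RefSeq TSS. What they deposited is a score, the sum scaled to all mapped reads and rounded, so no count model was used. All 8 columns of the table were mapped to samples by name (the PN7 column of H3K27me3 carries a letter b), columns of other samples numbered 0, and 2 of the 10 samples were not analysed here. Read depth is not given in the sources used here.

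A symbol with several entries (3225 symbols) kept the entry whose sum was largest (in a tie, the first by entry name). Changes are log2 ratios with a pseudocount of 1. Intervals are exact Poisson intervals for values and exact conditional (Clopper-Pearson) intervals for ratios. Percentiles use midranks over 20044 symbols. With 1 library for each mark and stage no test was made. The members and lists were chosen with earlier results of these data known. Named genes were all members, the nearest symbol to each, and of each further list at most the 2 genes with the largest and the 2 with the smallest change of H3K4me2 and the one with the highest H3K27me3. A gene that this rule covers is not reported here. Lrit3 and Cngb1 were not matched, and Tfap2b was matched as Tcfap2b.

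RefSeq promoters (table of build GRCm38.p6) were located in mm9 by exact match of their letters, and gene starts are those of the mm9 annotation. Calculations ran in Python 3.11.15 (pandas 2.3.3, numpy 2.4.6, scipy 1.17.1), plots in matplotlib 3.10.9, and the steps were tested on simulated data. Alternatives were libraries of a mark brought to an equal median, a pseudocount of 5, the mean over entries, a minimum value of 10, a limit of 1.5-fold, and the top 10% in place of the top 25%.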

Additional observations from a re-analysis of the deposited data

How the results depend on the processing

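Of 79 alternative values of the counts and medians of the 9 genes, 72 kept their direction and stayed close to the reported value. Close means within 1.5 times a count, or for a median within 1 standard deviation of the members' log2 changes. Of the values of single genes, 71 of 71 kept their side of the 2-fold limit. Many of these could not differ, since the minimum value only drops genes and the mean over entries can alter only Trpm1 and Pcp2. Sizes of the single-gene values moved more. The log2 change of H3K4me2 at Nyx was 3.17 and became 1.87 with a pseudocount of 5. At Trpm1 it was 0.54, and 0.90 with the mean over entries. For H3K27me3 at Nyx it was -0.23, and -0.094 after rescaling. With the mean over entries the genes high in H3K27me3 numbered 6 at PN1 and 5 at PN7. The 4 genes past the 2-fold limit downward in H3K4me2 from PN1 to PN7 became 2 with a pseudocount of 5 and 1 with a minimum value of 10, where 5 genes were left. With the top 10% in place of the top 25%, the genes high in H3K27me3 numbered 4 at E17.5, 4 at PN1 and 3 at PN7, against 8, 7 and 6, and at PN1 those high in H3K4me2, and in both marks, numbered 0 against 1. The stricter limits by their construction admit fewer genes. Each mark has 1 library for each stage, so that spread between animals is unknown and no library could be left out. No paired analysis was possible because no group has more than 1 sample. Depth is unknown beyond the bound of 1 read for each unit, and differences of a few units at Cabp5, Nyx, Trpm1 and Bhlhe23 in H3K4me2 were mostly not detectable at this depth.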
